A study of Mus musculus with 6 samples.

Results

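The genes described here carry proteins into and through the mitochondrial membranes, together with the CHCHD genes. They were taken by symbol: every row of the count table whose mouse identifier belongs to a protein-coding gene named Timm, Tomm or Chchd followed by a number. That gave 33 genes of the 55450 in the table: 10 Tomm genes, 15 Timm genes and 8 Chchd genes. Symbol families do not map one to one onto complexes. Tomm34, for example, encodes a cytosolic co-chaperone, Chchd1 a mitochondrial ribosome subunit, and Chchd3 and Chchd6 subunits of the MICOS complex that shapes the cristae.

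The libraries were polyA RNA-seq from small intestinal epithelium scraped off with a glass slide, 1 library per mouse, with 3 mice per genotype. The knockout mice (animals 423, 476 and 477) carried loxP-flanked alleles of Ncor1 and of the second targeted corepressor gene, plus Vil1-Cre-ERT2, a Cre recombinase driven by the villin 1 promoter and activated by tamoxifen. The control mice (animals 482, 483 and 486) carried the same floxed alleles without Cre. Per the labels' protocols, mice of both genotypes received tamoxifen at 15 mg per 100 g body weight for 5 days at an age of 8 to 9 weeks. For both genotypes the protocols also give metabolic cages at day 21, housing at 22 °C and 12 hours of light. The labels do not give the sex of each mouse, or which section of the small intestine a library came from. Because the knockout mice alone carried the transgene, its effect and that of the deletion cannot be told apart.

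Nearly all mitochondrial proteins are made in the cytosol and imported. The TOM complex of the outer membrane has receptors that recognise precursors and a channel they cross. Proteins with a presequence then pass TIM23 in the inner membrane, helped by a motor on the matrix side, while carrier proteins are escorted by small TIM chaperones through the intermembrane space to TIM22. CHCHD4 (the homologue of yeast Mia40) traps small cysteine-rich proteins in the intermembrane space by forming disulfide bonds in them; its substrates include small TIM chaperones and several CHCHD proteins.

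Total counts ran from 23476031 to 46835165 per library, and the 33 genes together had between 38014 and 93255 counts in a library. All levels below are CPM, counts scaled to library size with TMM factors, and within a genotype the values follow the order of the animal numbers above. Here a level of 3 counts, used as the detection floor, corresponded to a value between 0.0586 and 0.173 CPM. The targeted gene Ncor1 had 31.3, 36.4 and 22.5 CPM in the knockouts, against 140, 137 and 99.3 CPM in the controls, so every knockout library was below every control library. Epithelial markers summed to 9680 to 13677 CPM in knockouts and 12907 to 14344 CPM in controls, with 1 of 8 lower, none higher and none at 0. Enterocyte markers summed to 96634 to 184058 CPM in knockouts and 40439 to 60546 CPM in controls (3 of 6 higher, none lower). Leukocyte markers summed to 50.8 to 147 CPM in knockouts and 98.6 to 372 CPM in controls, with 1 higher and 2 lower of 8 tested. The 5 erythrocyte genes were all higher, at 35.5 to 543 CPM in knockouts and 7.95 to 22.2 CPM in controls. Mesenchyme markers (6.12 to 47.3 CPM in knockouts, 8.83 to 36.1 CPM in controls) and endothelial markers (0.633 to 2.39 CPM in knockouts, 1.5 to 3.44 CPM in controls) had no gene past the threshold among 8 and 2 tested. No list had a marker without counts in all libraries. The part of these marker shifts in the results below was not tested, and in bulk tissue fewer cells of a type and less RNA per cell cannot be told apart.

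Of the 33 genes, 30 passed the filter on low counts, and 18 of these were higher in the knockout, 1 was lower and 11 did not pass the threshold (edgeR quasi-likelihood test, Benjamini-Hochberg adjusted p under 0.05 over all 15028 genes tested). Across all genes tested, 17.3% were higher and 18.3% lower, against 60% of the import and CHCHD genes that were higher. The median log2 fold change was 0.88 over the 30 genes and -0.056 over all genes tested. With library-size scaling alone, where the median of all genes is -0.49, 7 were higher and 1 lower, beside 7.54% and 30.3% of all genes. By family, 5 of 8 tested Tomm genes, 8 of 14 tested Timm genes and 5 of 8 Chchd genes were higher. All 3 knockout libraries lay above all 3 control libraries in 17 genes and below them in 1 (23.9% and 26.4% of all genes tested, or 50.3% together). Without control 482 or without control 483, 11 of the 30 were higher, while the higher calls over all 15028 genes numbered 1538 without control 482 and 1524 without control 483, against 2596 with all libraries.

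**Figure D1:**
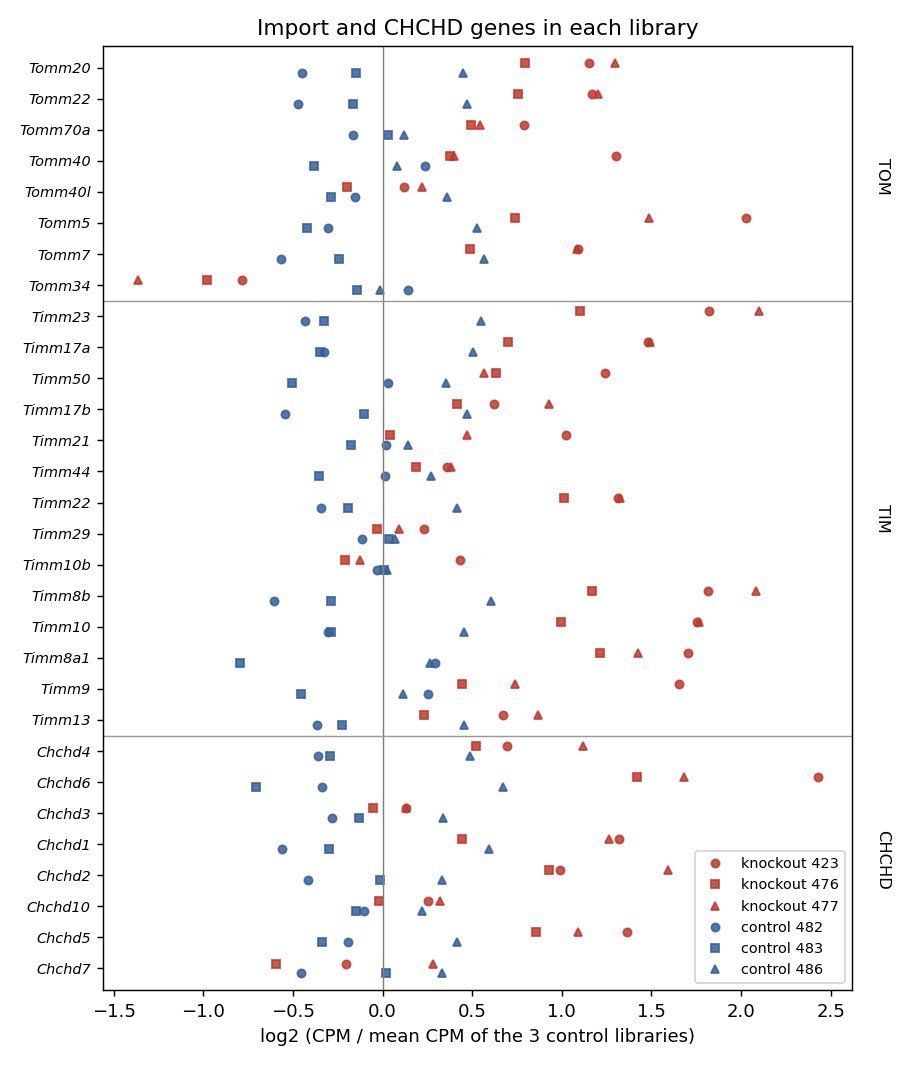
Level of each of the 30 tested genes in each library, as the log2 of its CPM over the mean of the 3 control libraries; red symbols are knockouts, blue symbols controls, and lines part the Tomm, Timm and Chchd families. Knockouts lie to the right of all controls in 17 genes and to the left in Tomm34.

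The summed level of the 33 genes was 2613, 2022 and 2969 CPM in the knockouts, and 1123, 1284 and 1821 CPM in the controls. The genotypes did not overlap, but knockout 476 and control 486 came close to each other. As a share of all counts the genes took 0.255%, 0.176% and 0.220% in the knockouts and 0.144%, 0.145% and 0.199% in the controls, and here knockout 476 fell below control 486. The 20 genes with the highest CPM summed over all libraries, 1 common set, took 22.1% to 28.9% of counts in knockouts and 9.66% to 12.8% in controls. Outside these 20, the share was 0.327%, 0.236% and 0.309% in the knockouts and 0.159%, 0.166% and 0.226% in the controls, without overlap.

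Short genes had higher fold changes than long ones throughout these data. Across all 15018 tested genes with a known length, Spearman's rho between log2 fold change and exon length was -0.37; genes are not independent replicates, so this is a description. In the decile of shortest genes (median 459 exon bases) the median log2 fold change was 0.96, and in the decile of longest genes (median 11553) it was -0.56. The 30 genes ran from 518 to 9777 exon bases with a median of 2794.5, against 3683.5 over all genes. After a smooth curve in exon length and GC content was fitted to each library and taken out, 17 of the 30 were higher and 1 lower, beside 18% and 13.3% of all genes. Values with this trend removed are given below for the calls that they end or move by more than 1.5 times. They are also given for some genes without a call and for some others.

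**Figure D2:**
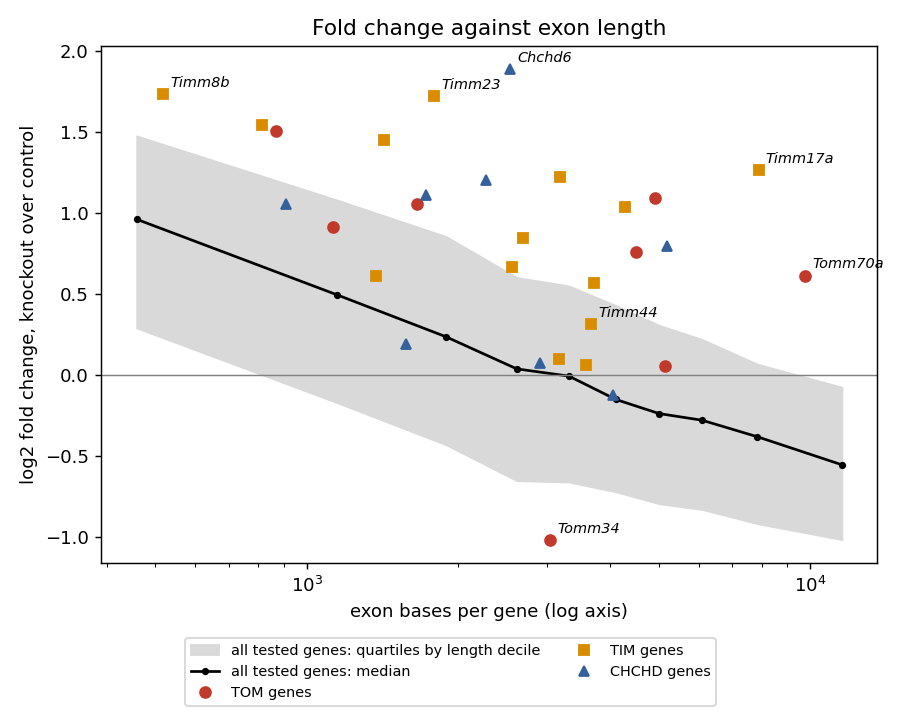
Log2 fold change (knockout over control) against exon bases per gene on a log axis; the line and the band give the median and quartiles of all tested genes in 10 length classes, and the symbols are the Tomm, Timm and Chchd genes. Timm17a (7893 exon bases, 1.27) and Tomm70a (9777 exon bases, 0.61) are long genes above the band, and Tomm34 is below it.

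Promoter windows were available from RefSeq (build GRCm38.p6, 250 bases before to 50 after the start) for 28 of the 33 genes, with 30 windows in all. They were searched on both strands for letters bound by NRF1 (GCGCA and GCGC with any base between them), ETS factors such as GABP (CCGGAAGT), YY1 (AAGATGGC) and CREB (TGACGTCA), for the E-box CACGTG, for CCAAT, and for the direct repeat DR1 of PPAR and other nuclear receptors (AGGTCA, any base, AGGTCA). NRF1 and GABP are known regulators of nuclear genes for mitochondrial proteins, which is why windows with their letters are shown. The NRF1 letters were in 3 windows (10%, against 4.6% of all 32851 windows), those of Tomm20, Chchd4 and Timm8b. The ETS letters were in 7 windows (23.3%, against 3.89%), the E-box in 7 (23.3%, against 7.15%), CCAAT in 10 (33.3%, against 37.4%) and YY1 in 1 (3.33%, against 2.75%). No window held the CREB letters (1.79% of all windows) or DR1 (0.0396%). No match of one motif overlapped a match of another. Capitals mark the NRF1 letters (on the minus strand of each gene) in the first pair of stretches, and the ETS letters in the other four, all upstream of the start:
Tomm20, chr8:126945922-126945981, minus strand: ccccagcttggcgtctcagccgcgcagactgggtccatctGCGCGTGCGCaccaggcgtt
Chchd4, chr6:91473585-91473644, minus strand: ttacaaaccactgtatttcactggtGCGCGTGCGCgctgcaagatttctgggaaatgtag
Timm23, chr14:32201905-32201964, minus strand: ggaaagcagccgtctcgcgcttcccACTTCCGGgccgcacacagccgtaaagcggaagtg
Chchd5, chr2:129129609-129129668, plus strand: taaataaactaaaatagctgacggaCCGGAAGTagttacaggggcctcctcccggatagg
Tomm70a, chr16:57121609-57121668, plus strand: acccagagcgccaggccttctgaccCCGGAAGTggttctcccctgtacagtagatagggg
Timm29, chr9:21592484-21592543, plus strand: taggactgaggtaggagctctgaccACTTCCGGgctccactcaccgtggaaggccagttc
All of these genes but Timm29, which was not called, were higher in the knockout, so the ETS letters were found beside both outcomes. The ETS windows not shown were those of Timm10 (higher), Timm10b (not called) and Timm8a2 (not tested). Of the 16 higher genes with a window, 3 held the NRF1 letters, 4 the ETS letters, 5 the E-box, 4 CCAAT and 1 the YY1 letters. A match is a string of letters and not a binding site.

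The receptors of the outer membrane were higher in the knockout. Tomm22, the central receptor that also holds the complex together, was at 233, 175 and 238 CPM in the knockouts and at 74.8, 92.4 and 144 CPM in the controls. Every knockout was above every control, and the log2 fold change was 1.05 (SE 0.28, edgeR adjusted p = 0.017). Tomm20, the receptor for presequences, was at 62.6, 48.9 and 69.3 CPM in the knockouts and at 20.7, 25.4 and 38.5 CPM in the controls, again without overlap (log2 fold change 1.09, SE 0.26, edgeR adjusted p = 0.012). Near-identical pseudogenes of Tomm20 held 13778 counts against its own 8113, so its level is uncertain, and summed with them the knockouts still lay above the controls. Tomm70a, the receptor for carrier precursors, was at 151, 123 and 127 CPM in the knockouts and at 77.8, 89.1 and 94.8 CPM in the controls. Its log2 fold change was the smallest of the 3 receptors at 0.61 (SE 0.20, edgeR adjusted p = 0.035). With the length and GC trend removed it was 0.98, between those of Tomm22 (0.77) and Tomm20 (1.28). The call of Tomm22 was lost without control 482, control 483 or knockout 477 (edgeR adjusted p of 0.053 to 0.060), and that of Tomm70a without any library other than control 486 (0.054 to 0.12). Tomm20l, a paralog of Tomm20, had no count in any library, which allows up to 0.0586 to 0.173 CPM.

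The channel gene and its paralog did not pass the threshold. Tomm40, which encodes the pore, was at 43.4, 22.8 and 23.2 CPM in the knockouts and at 20.7, 13.5 and 18.6 CPM in the controls. The genotypes did not overlap, with the widest gap at knockout 423, and the log2 fold change was 0.76 (SE 0.29, edgeR adjusted p = 0.067). It passed with DESeq2 (adjusted p = 0.035), without the low-count filter (edgeR adjusted p = 0.024), without knockout 476 (0.045) and with the length and GC trend removed (log2 fold change 1.10, edgeR adjusted p = 0.011) or the length trend alone (0.016). Tomm40l averaged 21.6 ± 3.16 CPM in knockouts and 20.8 ± 5.17 CPM in controls (SD, n = 3 each; log2 fold change 0.054, SE 0.23, or 0.40 with the length and GC trend removed, edgeR adjusted p = 0.25). Of the Tomm40l exon bases, 64.3% also belong to Nr1i3 on the other strand, so its level is uncertain.

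Small TOM subunits support the assembly and stability of the pore. Tomm5 was at 88.1, 36.1 and 60.6 CPM in the knockouts and at 17.5, 16.2 and 31.2 CPM in the controls, without overlap (log2 fold change 1.51, SE 0.36, edgeR adjusted p = 0.011). With the length and GC trend removed its log2 fold change was 0.87 (edgeR adjusted p = 0.024). Tomm7 was at 142, 93.3 and 141 CPM in the knockouts and at 44.9, 56.2 and 98.5 CPM in the controls. Knockout 476 lay below control 486, and the log2 fold change of 0.91 (SE 0.31, edgeR adjusted p = 0.044) became 0.40 and lost its call with the length and GC trend removed (edgeR adjusted p = 0.19). Without control 482, control 483, knockout 423 or knockout 477, its call was lost as well (0.10 to 0.13). Tomm6 had 4 counts over all 6 libraries; 859 of its 1131 annotated exon bases are also exon of Gm21981 on the same strand, so this count is uncertain as a measure of the gene.

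Tomm34 (ENSMUSG00000018322, mm10 chromosome 2, 164053540 to 164071169) was the one gene that fell. It was at 6.55, 5.72 and 4.37 CPM in the knockouts and at 12.5, 10.2 and 11.2 CPM in the controls. All knockouts were below all controls, and the log2 fold change was -1.02 (SE 0.24, edgeR adjusted p = 0.012). With the length and GC trend removed it was -0.83. Unlike the other Tomm genes it does not encode a subunit of the outer membrane complex; its product binds HSP70 and HSP90 in the cytosol and helps deliver precursors.

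Of the TIM23 genes, the channel gene changed most before the length and GC trend was removed. Timm23 (ENSMUSG00000013701, mm10 chromosome 14, 32180162 to 32201898) was at 17.7, 10.7 and 21.5 CPM in the knockouts and at 3.71, 3.98 and 7.30 CPM in the controls. The genotypes did not overlap, and the log2 fold change was 1.73 (SE 0.35, edgeR adjusted p = 0.0056), a 3.31-fold difference. Timm17a, one of a pair of alternative channel subunits, was at 101, 58.8 and 102 CPM in the knockouts and at 28.8, 28.4 and 51.3 CPM in the controls, a log2 fold change of 1.27 (SE 0.30, edgeR adjusted p = 0.012). With the length and GC trend removed, the log2 fold change was 1.53 for Timm23 and 1.59 for Timm17a. Processed pseudogenes of Timm23 and Timm17a held 28.1% and 13.2% as many counts as the genes, so their levels are uncertain. Timm17b, the other subunit of that pair, was at 46.7, 40.4 and 57.7 CPM in the knockouts and at 20.8, 28.2 and 41.9 CPM in the controls. Here knockout 476 lay below control 486, and the log2 fold change of 0.67 (SE 0.27) had an edgeR adjusted p of 0.079, or 0.012 without control 486.

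Timm50, the TIM23 receptor that meets the presequence, was at 34.7, 22.8 and 21.8 CPM in the knockouts and at 15.0, 10.4 and 18.8 CPM in the controls. It rose, at a log2 fold change of 0.84 (SE 0.28, edgeR adjusted p = 0.039), a call lost without control 482, control 483 or knockout 423 (0.080 to 0.13). Timm21, which links TIM23 to TOM, averaged 13.6 ± 4.64 CPM in knockouts and 9.17 ± 1.00 CPM in controls (SD, n = 3 each). Its log2 fold change of 0.57 had an edgeR adjusted p of 0.13, or 0.047 with the length trend removed and 0.11 with the length and GC trend removed. Timm44, which tethers the HSP70 motor to the channel, averaged 34.2 ± 2.50 CPM in knockouts and 27.5 ± 5.82 CPM in controls (log2 fold change 0.31, SE 0.21, or 0.55 with the length and GC trend removed, edgeR adjusted p = 0.069). So 3 of the 5 TIM23 complex genes were higher, and the motor tether was not called.

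The carrier translocase was uneven in the same way. Timm22 (ENSMUSG00000020843, mm10 chromosome 11, 76406952 to 76416292), its channel, was at 41.5, 33.8 and 41.9 CPM in the knockouts and at 13.2, 14.7 and 22.3 CPM in the controls. It rose without overlap, at a log2 fold change of 1.22 (SE 0.24, edgeR adjusted p = 0.0050). Timm29, a partner subunit of TIM22 known in human cells, was at 20.9, 17.5 and 19.0 CPM in the knockouts and at 16.5, 18.3 and 18.7 CPM in the controls. Timm10b, a small TIM that sits on the TIM22 channel, was at 6.69, 4.29 and 4.54 CPM in the knockouts and at 4.85, 4.998 and 5.04 CPM in the controls. The libraries of the genotypes overlapped in both of these genes, at log2 fold changes of 0.10 (SE 0.19) for Timm29 and 0.063 (SE 0.27) for Timm10b. With the length and GC trend removed they were 0.19 for Timm29 and 0.13 for Timm10b, again without a call.

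Of 5 tested small TIM chaperones, 4 were higher. Timm8b (ENSMUSG00000039016, mm10 chromosome 9, 50603910 to 50605320) had the highest CPM of them in each knockout, but not in controls 482 and 483. Not corrected for length, Timm8b was at 232, 148 and 279 CPM in the knockouts and at 43.4, 53.9 and 100 CPM in the controls. All knockouts were above all controls, and the log2 fold change was 1.74 (SE 0.35, edgeR adjusted p = 0.0058). Timm8b has 518 exon bases, the fewest of the tested genes, and with the length and GC trend removed its log2 fold change was 1.02 (edgeR adjusted p = 0.012). Timm10 (ENSMUSG00000027076, mm10 chromosome 2, 84826997 to 84830213) was at 27.5, 16.3 and 27.7 CPM in the knockouts and at 6.62, 6.69 and 11.2 CPM in the controls (log2 fold change 1.54, SE 0.30, edgeR adjusted p = 0.0046), or 1.00 with the trend removed (0.0054). Both are short genes whose calls held while the fold change became smaller.

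Timm9, which forms a hexameric chaperone with the Timm10 product, was at 20.3, 8.78 and 10.8 CPM in the knockouts and at 7.67, 4.69 and 6.97 CPM in the controls. Its log2 fold change of 1.04 (SE 0.34, edgeR adjusted p = 0.040) leaned on knockout 423: without that library it was 0.62 (0.13), and the call was also lost without control 482, 483 or 486 or knockout 477 (0.050 to 0.12) and with limma-voom (adjusted p = 0.054). Timm8a1, whose human homologue TIMM8A is mutated in deafness-dystonia syndrome, was at 8.58, 6.12 and 7.07 CPM in the knockouts and at 3.22, 1.52 and 3.16 CPM in the controls (log2 fold change 1.45, SE 0.34, edgeR adjusted p = 0.011). Its level is uncertain, since the pseudogene Gm9797, identical over 612 bases, held 69.8% as many counts. Timm13, the partner of TIMM8 proteins, was at 102, 75.2 and 117 CPM in the knockouts and at 49.8, 54.8 and 87.9 CPM in the controls. Timm13 overlapped between genotypes at a log2 fold change of 0.61 (SE 0.27, edgeR adjusted p = 0.10), which passed without control 486 (0.016). Timm8a2 had no count in any library.

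**Figure D3:**
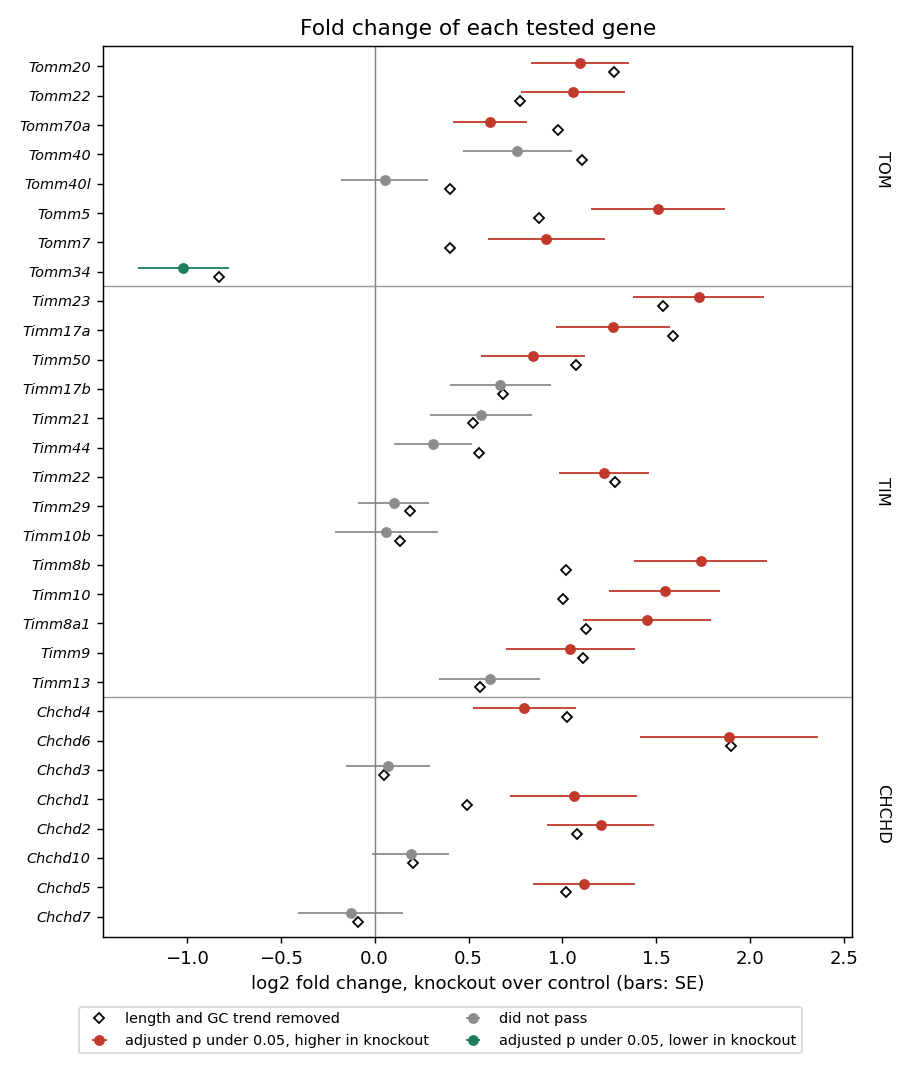
Log2 fold change (knockout over control) of each tested gene with its SE as a bar; red marks genes called higher, green the one called lower and grey those that did not pass, and open diamonds give the value with the length and GC trend removed. Removing the trend lowers short genes such as Timm8b (1.74 and 1.02) and raises long ones such as Timm17a (1.27 and 1.59).

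Of 8 Chchd genes, 5 were higher and none lower. Chchd4, the oxidoreductase that drives intermembrane space import, was at 56.3, 49.96 and 75.8 CPM in the knockouts and at 27.1, 28.5 and 48.9 CPM in the controls. The gap between knockout 476 and control 486 was narrow, and the log2 fold change of 0.80 (SE 0.27, edgeR adjusted p = 0.046) lost its call without control 482, control 483, knockout 423 or knockout 477 (0.070 to 0.15). Chchd2 (ENSMUSG00000070493, mm10 chromosome 5, 129881156 to 129887470), a stress-responsive protein of the intermembrane space, had the highest CPM of the 33 genes, not corrected for length, at 615, 590 and 934 CPM in the knockouts and at 232, 307 and 390 CPM in the controls. It rose without overlap, at a log2 fold change of 1.20 (SE 0.28, edgeR adjusted p = 0.011). Pseudogenes of Chchd2 held 30.7% as many counts as the gene. Its paralog Chchd10, which forms complexes with it, was at 131, 109 and 137 CPM in the knockouts and at 103, 99.3 and 128 CPM in the controls, a log2 fold change of 0.19 (SE 0.20) with overlapping genotypes.

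The MICOS pair also differed within itself. Chchd6 (ENSMUSG00000030086, mm10 chromosome 6, 89383146 to 89595652), which encodes MIC25, was at 4.16, 2.06 and 2.47 CPM in the knockouts and at 0.611, 0.473 and 1.23 CPM in the controls, the highest log2 fold change of the 30 genes at 1.89 (SE 0.47, edgeR adjusted p = 0.014). This is a low level, with 115, 62 and 43 counts in the knockouts and 29, 14 and 63 counts in the controls. Chchd3 (MIC19) was at 165, 145 and 165 CPM in the knockouts and at 124, 138 and 191 CPM in the controls, with a log2 fold change of 0.072 (SE 0.22). Chchd5, a twin-CX9C protein, was at 15.96, 11.2 and 13.2 CPM in the knockouts and at 5.42, 4.90 and 8.28 CPM in the controls (log2 fold change 1.11, SE 0.27, edgeR adjusted p = 0.013). Chchd7, another twin-CX9C gene, was at 86.3, 65.9 and 121 CPM in the knockouts and at 72.5, 101 and 125 CPM in the controls and was the only Chchd gene with a negative log2 fold change (-0.13, SE 0.28), which turns positive without control 486 (0.072), without knockout 476 (0.071) or with the length trend removed (0.088). Chchd1 was at 76.6, 41.8 and 73.7 CPM in the knockouts and at 20.8, 24.96 and 46.4 CPM in the controls. Its log2 fold change of 1.06 (SE 0.34, edgeR adjusted p = 0.035) became 0.49 with the length and GC trend removed (0.13), and its call was lost without control 482, control 483, knockout 423 or knockout 477 (0.094 to 0.10).

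Of the 19 calls, 8 held in the same direction in all 15 alternatives run, which include library-size scaling, DESeq2, the length corrections and each library left out. These genes were Timm8b, Timm10, Timm22, Timm23, Tomm5, Chchd2, Chchd6 and Tomm34.

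Levels can be compared between genes only per exon length, here as CPM per kilobase of annotated exon. In the knockouts Timm8b was highest at 424, then Chchd2 at 314, Tomm22 at 131 and Tomm7 at 111 CPM per kilobase. In the controls Chchd2 was highest at 137, then Timm8b at 127, Chchd10 at 69.9 and Tomm22 at 62.8 CPM per kilobase. The main channels were lower, with Timm22 at 12.3, Timm23 at 9.30 and Tomm40 at 6.61 CPM per kilobase in knockouts and 5.26, 2.80 and 3.90 in controls, as mean levels. The level of Timm23 is uncertain and may be understated, since its pseudogenes Gm10233 and Gm10171 are identical to it over 628 bases. Annotated exon length counts every isoform, so these values understate genes with long alternative transcripts.

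Related genes were also compared as log2 ratios of CPM within each library, which removes any scaling factor. Of 9 pairs tested, 6 did not overlap between the genotypes. Among all single genes tested, 50.3% did not overlap in 1 direction or the other. A share over other gene pairs was not computed, and the pairs were chosen with earlier results of these data known. With 3 libraries against 3 the two-sided exact permutation test cannot go below p = 0.1, which these 6 reached (0.15 after Benjamini-Hochberg adjustment over the 9 pairs), so no pair passes 0.05. Chchd2 over Chchd10 was 2.23, 2.44 and 2.77 in the knockouts and 1.18, 1.63 and 1.60 in the controls, a difference of 1.01 on the log2 scale. Chchd3 over Chchd6 averaged 5.81 ± 0.45 in knockouts and 7.59 ± 0.41 in controls (SD, n = 3 each), a difference of -1.78. Timm8b over Timm13 averaged 1.14 ± 0.14 in knockouts and -0.010 ± 0.20 in controls, a difference of 1.15, or 0.44 with the length and GC trend removed. Timm17a over Timm17b, the alternative channel subunits, averaged 0.82 ± 0.29 in knockouts and 0.26 ± 0.23 in controls, a smaller difference of 0.57. This order depended on the length and GC trend. With the trend removed, the difference was 0.90 for Timm17a over Timm17b and 0.86 for Chchd2 over Chchd10. For Chchd3 over Chchd6 it was then -1.82.

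The other pairs without overlap were partners of the TIM23 motor. Grpel1 over Grpel2, the nucleotide exchange factors of mitochondrial HSP70, averaged 1.87 ± 0.41 in knockouts and 0.12 ± 0.57 in controls (SD, n = 3 each), a difference of 1.75. Dnajc19 over Dnajc15, J-proteins of the motor, averaged -1.52 ± 0.18 in knockouts and -0.37 ± 0.36 in controls, a difference of -1.15. Tomm40 over Tomm40l (difference 0.64, exact permutation p = 0.2), Timm9 over Timm10 (-0.57, exact permutation p = 0.3) and Timm8a1 over Timm8b (-0.28, exact permutation p = 0.8) overlapped between the genotypes. With the length and GC trend removed, Timm9 over Timm10 turned to 0.071 and Timm8a1 over Timm8b to 0.17.

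**Figure D4:**
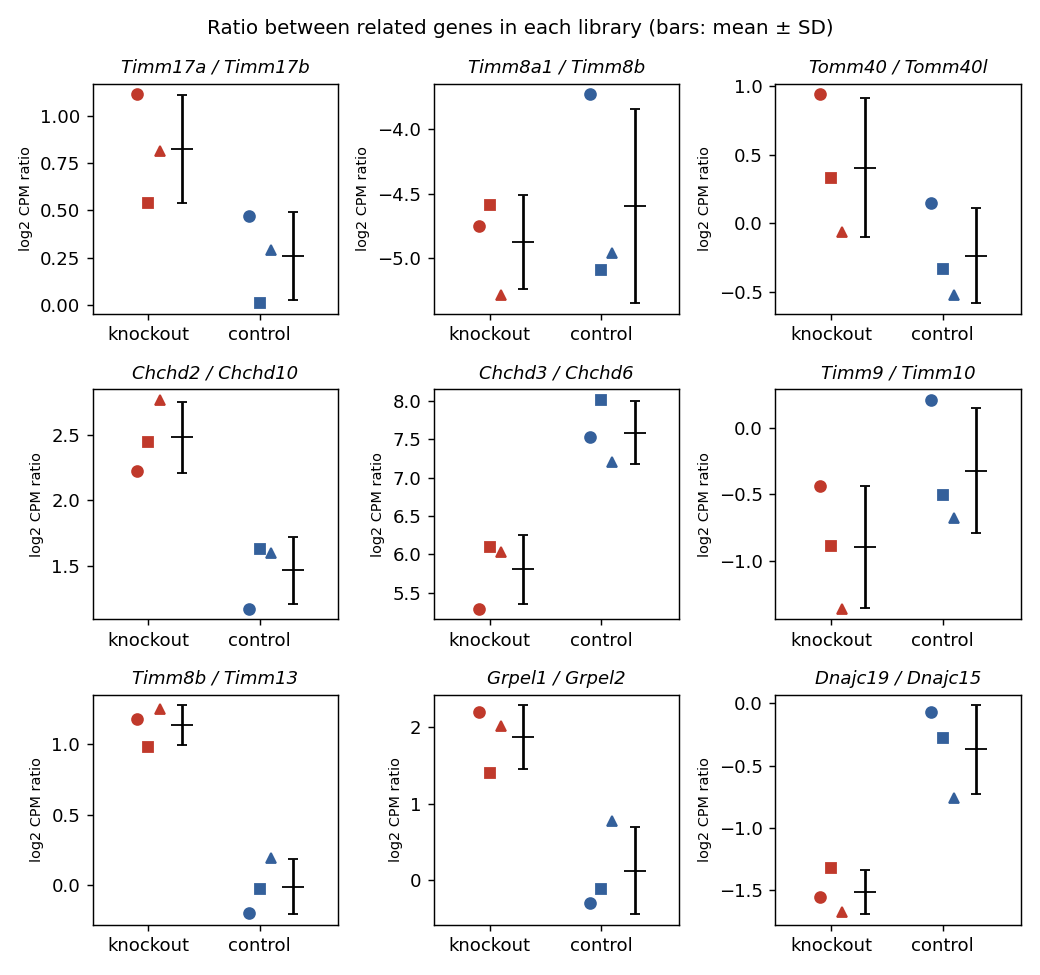
Log2 ratio of CPM between related genes in each library, knockouts in red and controls in blue, with the mean and SD of each genotype as black bars; each panel has its own axis. Knockouts and controls separate for Timm17a/Timm17b, Chchd2/Chchd10, Chchd3/Chchd6, Timm8b/Timm13, Grpel1/Grpel2 and Dnajc19/Dnajc15, and overlap in the other 3 panels.

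A list of 56 further genes covers the import motor, precursor processing, outer membrane insertion, intermembrane space oxidation, MICOS, matrix chaperones and mitochondrial proteases. All 56 were tested: 25 were higher, 4 lower and 27 not called, at a median log2 fold change of 0.59, beside 17.3% and 18.3% of all genes. With library-size scaling alone 6 were higher and 7 lower, beside 7.54% and 30.3% of all genes. Higher calls also depended on single libraries, with 13, 10, 12 and 12 genes without control 482, control 483, knockout 423 and knockout 477. Over all genes tested, higher calls fell from 2596 to 1538, 1524, 1930 and 1630 in these fits. The 4 lower calls became 1, 2, 1, 1 and 1 without control 482, control 483, knockout 423, knockout 476 and knockout 477. Over all genes tested, lower calls fell from 2752 to 1796, 1919, 2080, 2373 and 1724. The motor and TIM23 partners had 4 higher of 7, intermembrane space genes 6 higher and 1 lower of 12, matrix chaperones 3 higher of 5, and proteases with their prohibitin partners 5 higher and 1 lower of 12. Outer membrane sorting and insertion had 3 higher and 2 lower of 6, and precursor processing 3 higher of 7. MICOS had 1 higher of 5, and the TIM22 partner and insertion group none of 2.

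Grpel1 had the smallest adjusted p of the list, at 203, 139 and 195 CPM in the knockouts and at 30.8, 32.5 and 63.3 CPM in the controls (log2 fold change 2.09, SE 0.32, edgeR adjusted p = 0.0015). Gfer, the sulfhydryl oxidase that re-oxidises CHCHD4, was at 27.2, 22.1 and 30.4 CPM in the knockouts and at 8.03, 7.26 and 12.3 CPM in the controls (log2 fold change 1.53, SE 0.26, edgeR adjusted p = 0.0024). Chchd4 and Gfer, of this disulfide relay, were therefore both called higher, Gfer in every leave-one-out fit. The call of Chchd4 was lost in 4 of the 6 such fits. Aifm1, in the same group of the list and named here after its values were seen, went the other way without a call. Its knockouts all lay below its controls (log2 fold change -0.47, edgeR adjusted p = 0.078). The matrix chaperone genes Dnaja3 (log2 fold change 1.27), Hscb (1.56) and Hspe1 (1.56), the proteases Lonp1 (0.97) and Clpp (1.08), and the cytochrome oxidase assembly gene Coa5 (0.94) also rose. Without a call were the other matrix chaperone genes of the list, Hspd1 (0.66) and Trap1 (0.047), and, among other protease genes, Clpx (0.18). They were named here after their values were seen. The 4 that fell were the outer membrane sorting gene Mtx3 (-1.51), the outer membrane insertase gene Mtch1 (-0.69), the protease gene Spg7 (-0.55) and the twin-CX9C gene Cmc4 (-1.06). In the outer membrane group of Mtx3 and Mtch1, their relatives Mtx1 (0.62), Mtx2 (0.74) and Mtch2 (0.92), named here after their values were seen, were called higher, calls that were lost without 5, 4 and 4 of the 6 libraries in turn. Mtx3 kept its call without any one library, and Cmc4, at 1.15 ± 0.20 CPM in knockouts and 2.42 ± 0.65 CPM in controls (SD, n = 3 each), lost it in each such fit (edgeR adjusted p of 0.054 to 0.18). Calls of Mtch1 and Spg7 were each lost in 5 of these 6 fits (0.053 to 0.094 and 0.072 to 0.16).

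**Figure D5:**
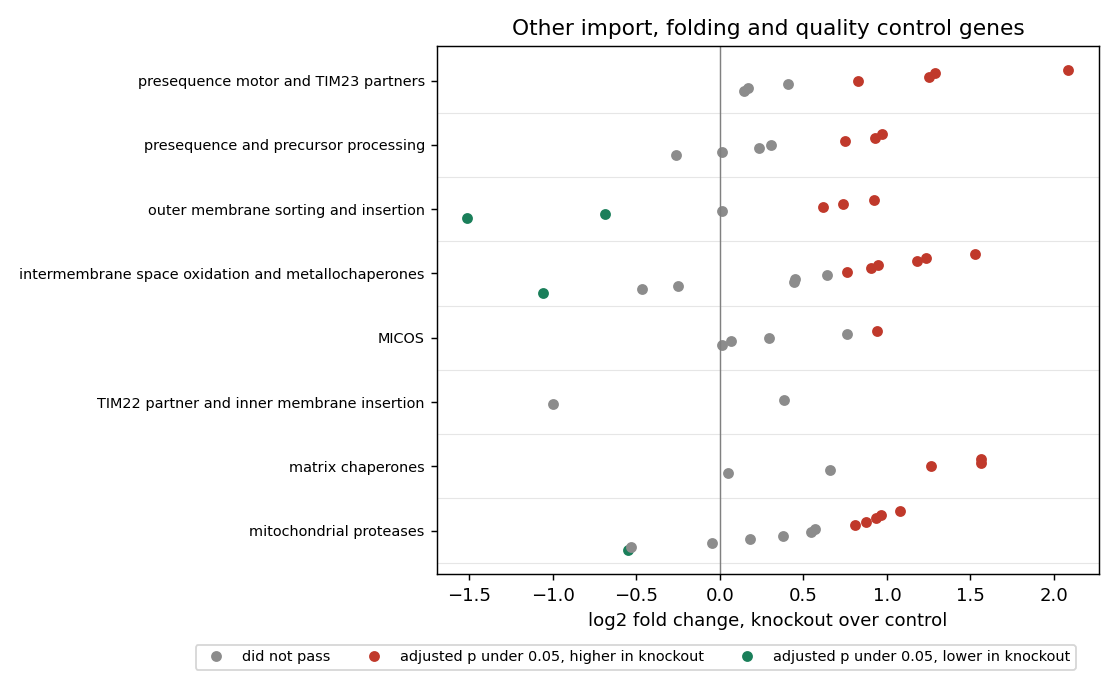
Log2 fold change (knockout over control) of the 56 further genes by functional group, 1 point per gene; red marks those called higher, green those called lower and grey those that did not pass. Grpel1 is the highest at 2.09 and Mtx3 the lowest at -1.51.

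Set beside other mitochondrial families taken by symbol, the 18 of 30 import and CHCHD genes that were higher compare with 50 of 77 tested mitochondrial ribosomal protein genes (median log2 fold change 1.01), 7 of 36 complex I subunit genes (0.51) and 11 of 37 mitochondrial carrier genes (0.10). Lower were 1, 0, 1 and 4 genes. As shares, 60%, 64.9%, 19.4% and 29.7% were higher, beside 17.3% higher and 18.3% lower of all genes tested. The higher share of complex I subunit genes was thus near that of all genes. These counts share the same 6 libraries, and no difference between families was tested.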

How the data were processed

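The members, gene lists and tests were chosen with earlier results of these data known. The deposited count table holds whole-number counts per gene, made by the authors. Per the submitters' processing notes, the build was mm10 and the named tools, with no role given, include STAR (version 2.7.9a), Subread (version 1.6.2) with featureCounts, fastp (version 0.21.0), bcl2fastq, DESeq2 (version 1.23.10) and FastQC (version 0.11.7). The sources used here do not give the annotation, strand setting or filters, so overlapping genes on opposite strands cannot be told apart. A second deposited table holds variance-stabilised log2 values and served 1 alternative. Of 55450 identifiers, 55190 matched a gene of GENCODE M21 (mm10), the source of symbols, coordinates, exon lengths and, from each gene's longest transcript, GC content.

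The test of counts used edgeR 4.0.16 under R 4.3.3 (filterByExpr, TMM, robust quasi-likelihood test, knockout over control, Benjamini-Hochberg over 15028 genes, threshold 0.05), a script tested on simulated data. An SE is the log2 fold change over the square root of F. Log2 ratios used a prior count of 2. Alternatives used DESeq2 1.42.0, limma 3.58.1 and, for the smooth trend with length and GC, mgcv 1.9.3. TMM factors were 0.741 to 0.975 in knockouts and 1.09 to 1.28 in controls. The detection floor of 3 counts covers counting error only. Every member is accounted for. Of the further list, up to 8 genes with the smallest adjusted p in each direction are named, and genes of the fixed pairs. Outside this rule, Mtx1, Mtx2, Mtch2, Aifm1, Hspd1, Trap1 and Clpx were named after their values were seen. Libraries are 1 per mouse, and p-values measure the spread between these mice. Pseudogene copies were sought with blastn (at least 95% identity over at least 200 bases). The second targeted gene is not reported here.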

Additional observations from a re-analysis of the deposited data

How the results depend on the processing

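The 18 higher calls became 7 with library-size scaling alone, where the median over members was 0.47 and that of all genes -0.49, and lay between 17 and 19 with RLE factors, either filter, DESeq2, limma-voom, limma-trend on the deposited values and either length correction; the 1 lower call (Tomm34) stood in each. Leaving out 1 library gave 11 to 19 higher and 1 lower, with medians of 0.74 to 1.11. Calls over all genes numbered 5348, against 3334, 3443 and 3354 without control 482, control 483 or knockout 477. For the further list, library-size scaling gave 6 higher and 7 lower, leaving out 1 library 10 to 28 higher and 1 to 3 lower, and RLE factors, no filter and both length corrections 2 lower each. Signs turned only in genes without a call: with library-size scaling in Chchd10 (-0.25), Chchd3 (-0.35), Timm10b (-0.35), Timm29 (-0.33), Timm44 (-0.13) and Tomm40l (-0.38), with the length trend removed in Chchd7 (0.088), and without 1 library in Chchd3 (-0.051 to 0.28), Chchd7 (-0.39 to 0.072), Timm10b (-0.15 to 0.19) and Tomm40l (-0.070 to 0.27). Of the pairs, Timm8a1/Timm8b turned to 0.17 with length and GC removed and had -0.53 to 0.15 without 1 library, and Timm9/Timm10 turned to 0.071 with length and GC removed. The knockout share of counts over the control share was 1.33, with a range of 1.22 to 1.5 without 1 library, and 1.58 outside the 20 most abundant genes. The cause of these shifts was not tested. No paired analysis was possible because the animal numbers of the genotypes are not shared. Of the tested members, Chchd6 and Timm8a1 had the fewest counts.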

Other observations

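Processed pseudogenes took reads alongside several members. Those of Tomm20 had 13778 counts over the 6 libraries, against 8113 for Tomm20 itself, most of them in Gm14494 (13624 counts, 99.5% identical over 435 bases). The copies of Tomm20 averaged 119 CPM in knockouts and 37.5 CPM in controls, and Tomm20 with its copies averaged 179 ± 27.3 CPM in knockouts and 65.7 ± 29.9 CPM in controls (SD, n = 3 each), again without overlap. Copies of Chchd2, mainly Gm12350, had 30.7% as many counts as the gene, those of Timm23 28.1%, that of Timm8a1 69.8% and that of Timm17a 13.2%. Summed with their copies, Chchd2, Timm23, Timm8a1 and Timm17a had log2 ratios of mean CPM of 1.21, 1.76, 1.65 and 1.29, against 1.203, 1.73, 1.46 and 1.27 for the genes alone, and knockouts stayed above controls in all 4. Which gene these reads came from was not tested.

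A pair of genes shares much of their sequence with a neighbour. Tomm6 and Gm21981, which overlap on the same strand, had 4 and 3 counts over the 6 libraries. Tomm40l overlaps Nr1i3, the gene of the xenobiotic receptor CAR, which averaged 72.8 ± 16.6 CPM in knockouts and 77.2 ± 16.4 CPM in controls (SD, n = 3 each; log2 fold change -0.085).

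Knockout 476 was the lowest knockout in 28 of the 30 tested members, against 31.5% of all tested genes, and control 486 the highest control in 26 of 30, against 38.5%. These are descriptions of 6 libraries, and members of one library share its depth and scaling.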
